A study of Homo sapiens with 6 samples.

Results

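Mitochondrial ribosomal proteins are the nuclear-encoded proteins of the ribosome inside mitochondria. The genes were taken by symbol, MRPL for the large subunit and MRPS for the small subunit, each followed by a number and at most 1 letter. Of 77 such symbols in the array annotation, 73 had a row that names no other gene, and these 73 of 18404 genes tested are described here, 48 of the large and 25 of the small subunit. The other 4 (MRPL51, MRPS6, MRPS24 and MRPS28) were in rows shared with another gene and are given separately. All 73 were tested, with no filter on low values.

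The RNA came from BE(2)-C, a cell line of human neuroblastoma that carries amplified MYCN, grown in medium with dialyzed serum. 3 samples were treated with 5 µM BIX01294, an inhibitor of the histone methyltransferases EHMT2 and EHMT1, for 24 h, and 3 received 0.05% DMSO, the solvent, for 24 h. Each sample was measured on 1 Affymetrix gene-level array, and the 3 samples of a group are described as independent, without saying whether cultures or days were separate, so p-values measure the spread between these samples. The labels give no DMSO content for the treated samples, and the comparison concerns 1 cell line, 1 dose and 1 time.

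The mitochondrial ribosome translates the few proteins encoded by mitochondrial DNA, all of them subunits of the respiratory chain and ATP synthase. Its RNAs are made in the mitochondrion, while its proteins are made in the cytosol and imported. The large subunit holds the centre where peptide bonds form, and the small subunit holds the centre where messenger RNA is decoded. Part of the proteins descend from bacterial ribosomal proteins and the others are found in mitochondria only. MRP transcripts are known to be coordinated with other nuclear genes for mitochondrial proteins, and the transcription factors NRF1, GABP (of the ETS family) and YY1 are known regulators of such genes.

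Promoter sequences of 66 of the 73 genes were found in the RefSeq table (GRCh38.p14). The 200 bases before the transcription start are shown for 5 genes that rose: the divergent pair MRPL46 and MRPS11, MRPL18 with the largest change, and MRPL17 and MRPS18C, which hold matches to the NRF1 motif. Each is written 5′ to 3′ on the strand of the gene, with matches to the NRF1 motif or to the E-box in capitals.
MRPL46, chr15:88467389-88467588, minus strand: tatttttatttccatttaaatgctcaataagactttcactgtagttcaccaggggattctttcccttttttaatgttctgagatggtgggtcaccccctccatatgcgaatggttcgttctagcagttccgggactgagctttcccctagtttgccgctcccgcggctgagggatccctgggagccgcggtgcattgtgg
MRPS11, chr15:88467508-88467707, plus strand: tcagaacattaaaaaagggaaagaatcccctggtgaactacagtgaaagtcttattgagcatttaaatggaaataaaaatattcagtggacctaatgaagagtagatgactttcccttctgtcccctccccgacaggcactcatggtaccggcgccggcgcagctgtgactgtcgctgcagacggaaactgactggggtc
MRPL18, chr6:159789612-159789811, plus strand: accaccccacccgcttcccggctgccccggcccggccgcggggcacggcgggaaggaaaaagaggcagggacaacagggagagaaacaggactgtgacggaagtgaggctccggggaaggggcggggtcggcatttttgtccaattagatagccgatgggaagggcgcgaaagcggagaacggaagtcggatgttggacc
MRPL17, chr11:6683341-6683540, minus strand: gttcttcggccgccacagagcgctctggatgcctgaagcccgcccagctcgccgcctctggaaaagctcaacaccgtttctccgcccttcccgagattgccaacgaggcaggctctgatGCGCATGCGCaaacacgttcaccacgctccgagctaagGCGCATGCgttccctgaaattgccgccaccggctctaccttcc
MRPS18C, chr4:83455858-83456057, plus strand: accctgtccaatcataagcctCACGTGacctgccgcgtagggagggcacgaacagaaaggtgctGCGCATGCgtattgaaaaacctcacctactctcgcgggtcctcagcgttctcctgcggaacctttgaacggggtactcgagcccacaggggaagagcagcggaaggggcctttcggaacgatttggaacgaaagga
In the MRPL17 sequence the first run in capitals starts 81 bases before the start and holds 2 overlapping matches, since GCATGCGC and its reverse complement GCGCATGC share letters there, and the second run starts 43 bases before it. In the MRPS18C sequence the E-box CACGTG starts 179 bases and the NRF1 match 136 bases before the start. The other 3 stretches hold no match to any motif searched.

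Array values are on a log2 scale, so a difference of 1 is a 2-fold change, and every change below is BIX01294 minus DMSO. A gene is said to have risen or fallen where the adjusted p of limma was under 0.05, adjusted over all 18404 genes. Array medians lay between 6.94 and 7.01, and each array correlated more closely with its own group (r of 0.995 to 0.996 over all rows) than with the other group (0.991 to 0.992). The adrenergic neuroblastoma markers measured, 7 of 8, all lay above the median level of all genes. Among them tyrosine hydroxylase (TH), which makes catecholamines, averaged 11.20 ± 0.07 in BIX01294 and 11.15 ± 0.03 in DMSO (SD, n = 3 each). ISL1 rose, GATA3 and PHOX2A fell and the other 4 did not pass; without BIX01294 replicate 3, or DMSO replicate 1 or 2, neither fall passed. Of 10 mesenchymal markers, 3 rose (VIM, CD44 and THY1), 2 fell, DCN with the larger change, and 5 did not pass. FN1 averaged 5.34 ± 0.16 in BIX01294 and 5.33 ± 0.05 in DMSO (SD, n = 3 each). The part of these marker changes in the results below was not tested.

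BIX01294-treated cells had higher levels of some mitochondrial ribosomal protein transcripts, and the changes were small. Of the 73 genes 23 rose, 1 fell and 49 did not pass the test. That is 31.5% rising, where 12.9% of all genes rose, and 1.37% falling, where 10.7% of all genes fell. The median change of the 73 genes was 0.13, where that of all genes was -0.01. No member reached 2-fold: the largest rise, that of MRPL18, was 1.52-fold, at rank 239 among all genes that rose.

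Genes with bright rows were called more often, and 69 of the 73 rows lay above the median level of all genes tested. Above that level, 21 of 69 members (30.4%) rose, where 22.5% of 9202 genes rose, and 1 fell, where 14.8% of those genes fell. The median change was 0.12 for these 69 members and 0.03 for all genes above that level. The brightness of a row depends on its probes as well as on the RNA, so changes are read within a row, and a place in the arrays' range is only a rough description.

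BIX01294 replicate 1 had higher values than the other BIX01294 arrays for most members. Against the DMSO mean of each gene, the median of the 73 members was 0.18, 0.11 and 0.09 in BIX01294 replicates 1, 2 and 3 and 0.01, 0.03 and -0.03 in the DMSO replicates. BIX01294 replicate 1 held the highest BIX01294 value in 60 of 73 members (82.2%) and in 20 of the 23 that rose. In genes above the median level it did so in 40.6%, and in all genes in 30.8%. Without this array 14 members rose (19.2%), where 9.48% of all genes rose. Without DMSO replicate 1 the number was 15 (20.5%), where 9.62% of all genes rose. With all 6 arrays these shares were 31.5% and 12.9%, so leaving out an array lowered the calls of all genes as well. The part of this array in the result was not tested beyond these counts. The medians of all 3 BIX01294 arrays lay above those of all 3 DMSO arrays. This order was not particular to members. For all genes above the median level the medians were 0.04, 0.04 and 0.03 in BIX01294 replicates 1, 2 and 3 and 0.02, 0.02 and -0.04 in the DMSO replicates.

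**Figure D1:**
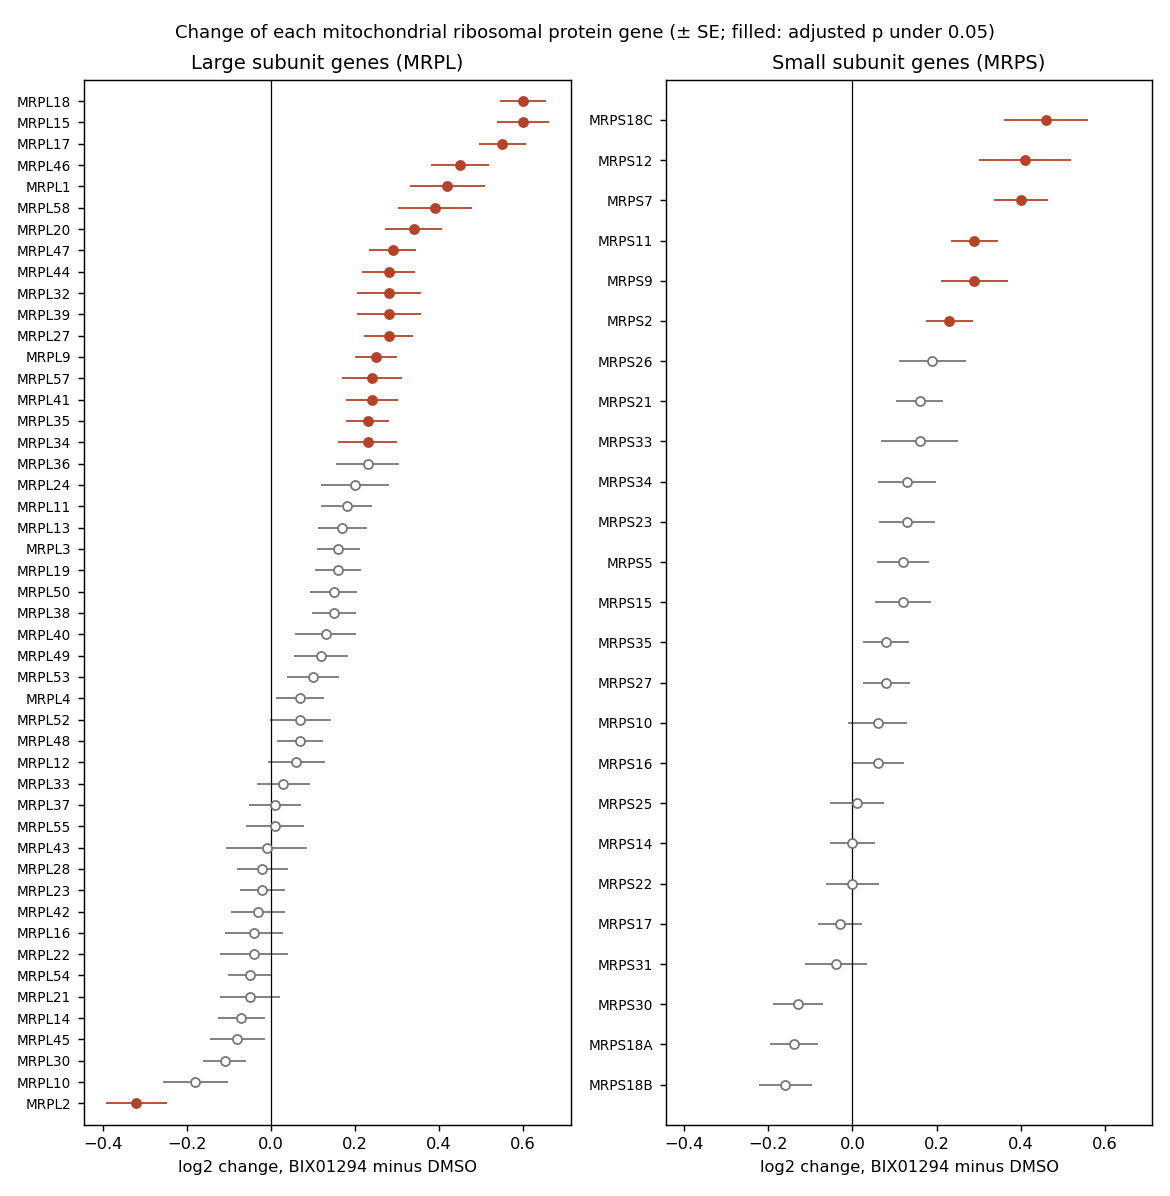
Log2 change (BIX01294 minus DMSO, horizontal axis) of each of 48 large subunit genes, left, and 25 small subunit genes, right, ordered by size; points are fitted changes, bars are ± 1 SE from limma and filled points passed an adjusted p of 0.05. Filled points lie to the right of 0 for 17 large and 6 small subunit genes, and only MRPL2 has a filled point to the left.

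Values of BIX01294 and DMSO were fully separated in 41 of the 73 members (56.2%). This was so for 40.1% of all genes and 60.0% of those above the median level. Separation as such was thus no more frequent in members than in genes above the median level. In 36 members (49.3%) all 3 BIX01294 values lay above all 3 DMSO values, which was so for 21.4% of all genes and 35.8% of those above the median level. In 5 members (6.85%) they lay below, which was so for 18.7% of all genes. The 49 members that did not pass had changes of -0.18 to 0.23, 31 of them above 0 and 18 below. The standard errors of all 73 changes were 0.051 to 0.11.

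The 3 largest rises were in large subunit proteins with bacterial homologues. MRPL18, a protein of the central protuberance of the large subunit, measured 11.10, 11.02 and 11.01 in BIX01294 and 10.41, 10.47 and 10.44 in DMSO. Its rise was 0.60 ± 0.054 (SE), with an adjusted p of 0.000249 in limma. All BIX01294 values were over 0.5 above the highest DMSO value. MRPL15 measured 10.43, 10.33 and 10.29 in BIX01294 and 9.81, 9.75 and 9.69 in DMSO, a rise of 0.60 ± 0.061 (SE). MRPL17, whose bacterial homologue lies at the peptide exit tunnel, measured 11.11, 11.00 and 11.00 in BIX01294 and 10.52, 10.46 and 10.49 in DMSO, a rise of 0.55 ± 0.056 (SE). These 3 genes were the only members that passed when a minimum change of 0.2 was asked of the test. That is 4.11% of members, where 2.95% of all genes passed as higher, so the count is close to the share over all genes. MRPL1, the protein of the mobile L1 stalk, measured 8.71, 8.47 and 8.46 in BIX01294 and 8.18, 8.21 and 7.98 in DMSO. The groups of MRPL1 did not overlap, with a rise of 0.42 ± 0.09 (SE; adjusted p 0.0115 in limma). MRPL46, a mitochondria-specific protein of the large subunit, measured 11.13, 10.98 and 10.95 in BIX01294 and 10.65, 10.49 and 10.58 in DMSO, and rose by 0.45 ± 0.07 (SE; adjusted p 0.00301 in limma).

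**Figure D2:**
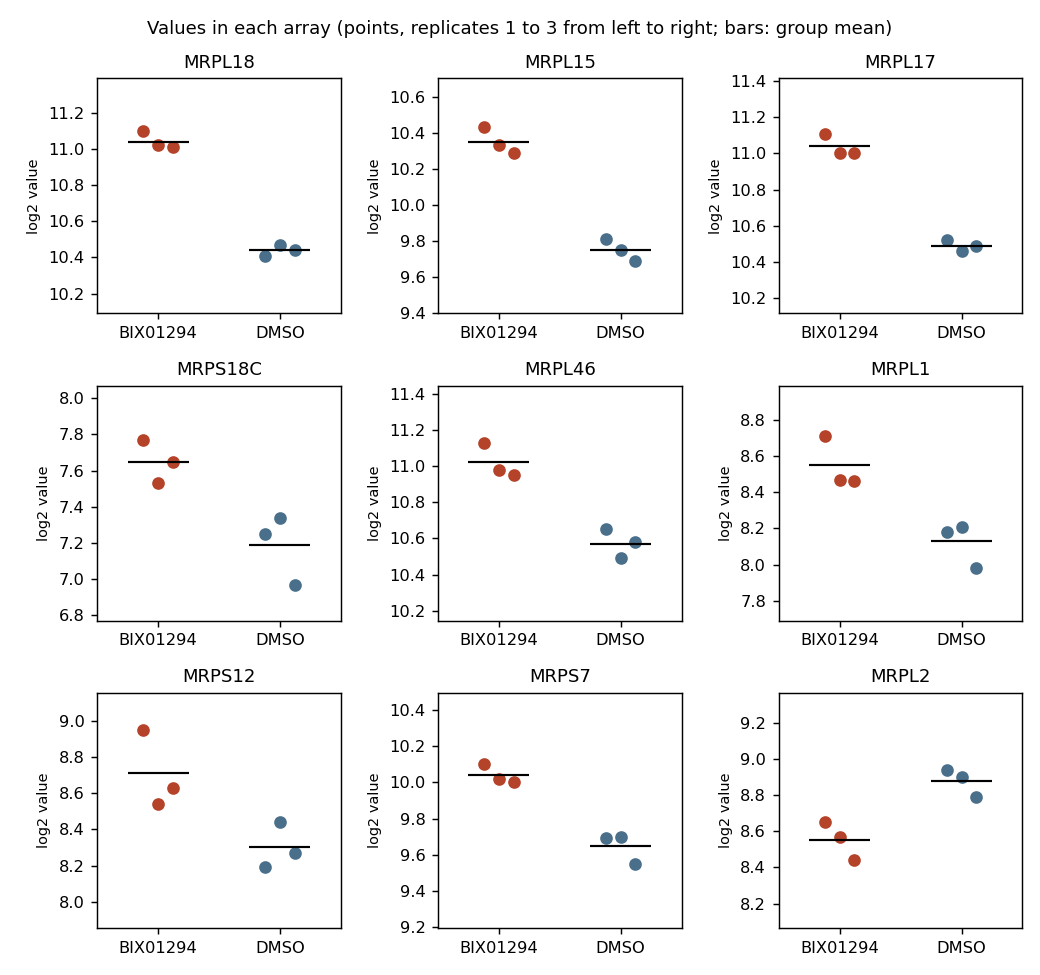
Log2 value (vertical axis, each panel spanning 1.3 units) in each of 3 BIX01294 arrays, left, and 3 DMSO arrays, right, for the 8 largest rises and for MRPL2; points are arrays and bars group means. The groups do not overlap in any panel, and BIX01294 replicate 1 is the highest BIX01294 value in all 9.

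Small subunit genes with the largest rises were MRPS18C, MRPS12 and MRPS7. MRPS18C measured 7.77, 7.53 and 7.65 in BIX01294 and 7.25, 7.34 and 6.97 in DMSO, a rise of 0.46 ± 0.10 (SE; adjusted p 0.0145 in limma). Its groups did not overlap, and without BIX01294 replicate 3 its adjusted p in limma was 0.0527. MRPS12, the protein next to the decoding centre whose bacterial homologue is the site of streptomycin resistance mutations, measured 8.95, 8.54 and 8.63 in BIX01294 and 8.19, 8.44 and 8.27 in DMSO. Its rise of 0.41 ± 0.11 (SE; adjusted p 0.0315 in limma) had the largest standard error of the 8. Leaving out BIX01294 replicate 1 or 3 ended the call of MRPS12 (adjusted p 0.0603 and 0.064 in limma), as did leaving out DMSO replicate 1 or 3 (adjusted p 0.101 and 0.0877). MRPS7, which binds the small subunit RNA, measured 10.10, 10.02 and 10.00 in BIX01294 and 9.69, 9.70 and 9.55 in DMSO. The groups of MRPS7 were well apart, and its rise was 0.40 ± 0.064 (SE; adjusted p 0.00338 in limma).

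A further 15 members rose, by 0.23 to 0.39, with adjusted p in limma of 0.00726 to 0.0496. The 12 of the large subunit were MRPL9, MRPL20, MRPL27, MRPL32, MRPL34, MRPL35, MRPL39, MRPL41, MRPL44, MRPL47, MRPL57 and MRPL58. MRPL58 is a peptidyl-tRNA hydrolase that releases peptides from stalled ribosomes and is built into the large subunit, and MRPL44 resembles ribonuclease III. The 3 of the small subunit were MRPS2, MRPS9 and MRPS11. Of all 24 calls, 12 held without any 1 array: MRPL1, MRPL9, MRPL15, MRPL17, MRPL18, MRPL20, MRPL27, MRPL46, MRPL47, MRPL58, MRPS7 and MRPS11. The other 12, MRPL2 among them, were lost without at least 1 array.

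MRPL2 was the member that fell. It encodes the homologue of a bacterial protein near the peptidyl transferase centre and measured 8.65, 8.57 and 8.44 in BIX01294 and 8.94, 8.90 and 8.79 in DMSO. Its groups did not overlap, with a change of -0.32 ± 0.072 (SE; adjusted p 0.0134 in limma), and without DMSO replicate 1 the adjusted p was 0.0522. The next largest decrease in level was in MRPL10, part of the stalk base that recruits translation factors, at -0.18 with an adjusted p of 0.134 in limma, named after its value was seen.

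Large and small subunit genes had medians close to each other. Of 48 large subunit genes 17 rose (35.4%) and 1 fell, and of 25 small subunit genes 6 rose (24.0%) and 0 fell by limma's adjusted p. At an unadjusted p under 0.05 in limma, 33 members were higher and 4 were lower. The 4 were MRPL2 and MRPL10, and by symbol of the small subunit MRPS18A and MRPS18B. Of all genes 12.9% rose, and of those above the median level, where 46 of the 48 and 23 of the 25 lie, 22.5% rose. The small subunit share is thus near that of genes above the median level. Median changes were 0.15 for the large and 0.12 for the small subunit, a difference of 0.03. In single BIX01294 arrays, each against the DMSO mean, the large minus small difference was 0.03, 0.04 and 0.05, where DMSO arrays gave -0.02, -0.01 and 0.02. The difference was -0.01 without BIX01294 replicate 3 and 0.07 without DMSO replicate 3, so its direction turned with 1 array left out, and no test of it was run. Small subunit rises numbered 3 when BIX01294 replicate 1 or 3, or DMSO replicate 1 or 3, was left out, and 5 without replicate 2 of either group. Large subunit rises numbered 11 without BIX01294 replicate 1, and 12 or 13 without any other array. In these fits 9.23% to 10.4% of all genes rose, so the calls of all genes were fewer as well.

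**Figure D3:**
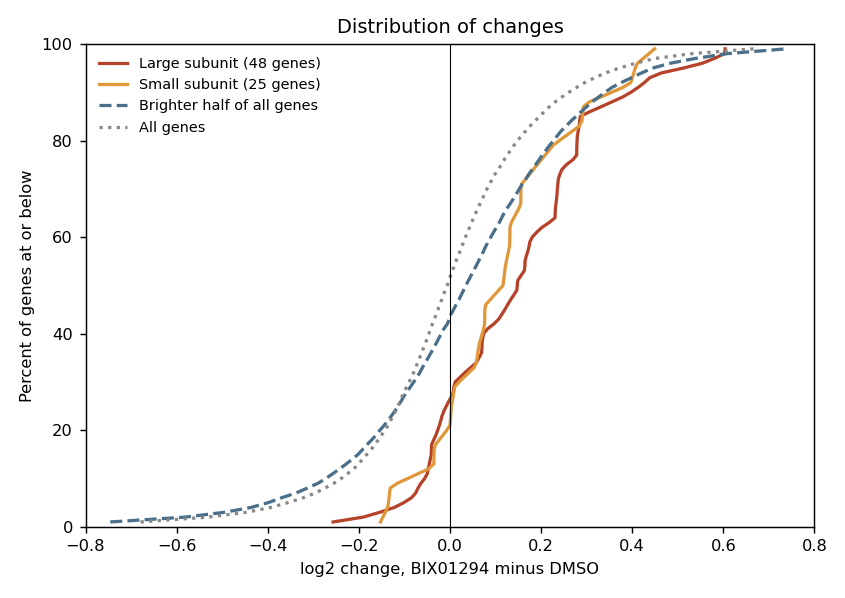
Percent of genes (vertical axis) at or below each log2 change, BIX01294 minus DMSO (horizontal axis), for the large subunit, the small subunit, genes above the median level (the legend's brighter genes) and all genes; the axis stops at 0.8 on either side. The large and small subunit curves cross, and around the middle both lie to the right of the other 2 curves, with medians of 0.15, 0.12, 0.03 and -0.01.

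Symbol and place differ for some members. Structures of the mammalian ribosome put MRPS30 and MRPS18A in the large subunit. MRPS30 measured 9.45, 9.31 and 9.43 in BIX01294 and 9.57, 9.51 and 9.50 in DMSO, a difference of -0.13 ± 0.059 (SE; adjusted p 0.156 in limma). MRPS18A, MRPS18B and MRPS18C are related in sequence, and by the ribosome nomenclature used for the ancestry classes only MRPS18C counts as the homologue of the bacterial protein. MRPS18A measured 10.56, 10.60 and 10.51 in BIX01294 and 10.71, 10.73 and 10.63 in DMSO, a difference of -0.14 ± 0.057 (SE; adjusted p 0.129 in limma). MRPS18B measured 9.39, 9.25 and 9.29 in BIX01294 and 9.50, 9.51 and 9.39 in DMSO, a difference of -0.16 ± 0.063 (SE; adjusted p 0.115 in limma). MRPS18C thus rose, while MRPS18A and MRPS18B had lower means in BIX01294 and did not pass, and the difference between the homologues was not tested. The calls of these genes depended on the processing. MRPS18A and MRPS18B passed as lower with quantile normalization (adjusted p 0.0404 and 0.0284 in limma), without genes below the median level (0.0419 and 0.0348) and with an intensity trend and robust estimation (0.0283 and 0.0448). MRPS30 passed as lower with quantile normalization (adjusted p 0.042 in limma). With MRPS30 and MRPS18A counted in the large subunit, 17 of 50 large and 6 of 23 small subunit genes rose and the medians were 0.14 and 0.12.

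Members with bacterial homologues rose in 17 of 43 cases (39.5%) and fell in 1, and mitochondria-specific members rose in 6 of 30 (20.0%) and fell in 0 by limma's adjusted p. Of all genes 12.9% rose, and of those above the median level, where 40 of the 43 and 29 of the 30 lie, 22.5% rose. The mitochondria-specific share is thus near that of genes above the median level. Their median changes were 0.16 and 0.09. In the small subunit, all 6 rises were among the 13 genes with bacterial homologues. None of the 12 mitochondria-specific small subunit genes passed in limma, and at an unadjusted p under 0.05 MRPS26 was higher and MRPS18A and MRPS18B were lower. Subunits are counted by symbol here, so the 12 include MRPS18A and MRPS30, which structures put in the large subunit. In the large subunit, 11 of 30 genes with bacterial homologues and 6 of 18 mitochondria-specific genes rose. Rises among mitochondria-specific members numbered 2 without BIX01294 replicate 1 and 4 without DMSO replicate 2 or 3. Without BIX01294 replicate 2 or 3, or DMSO replicate 1, they numbered 3. Those among members with bacterial homologues numbered 12 without BIX01294 replicate 1 or DMSO replicate 1 or 3, and 13 to 15 without any other array. In these fits 9.23% to 10.4% of all genes rose, against 12.9% with all arrays. Whether the ancestry classes differ was not tested.

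MRPL12 and MRPL45, chosen beforehand for known contacts outside the ribosome, had means close to those in DMSO. MRPL12, the stalk protein that also binds the mitochondrial RNA polymerase, measured 10.26, 10.14 and 10.03 in BIX01294 and 10.08 in each DMSO array. MRPL45, which ties the ribosome to the inner membrane, measured 12.38, 12.21 and 12.23 in BIX01294 and 12.41, 12.28 and 12.36 in DMSO. The groups of both genes overlapped, with changes of 0.06 ± 0.068 and -0.08 ± 0.066 (SE) and adjusted p of 0.604 and 0.461 in limma.

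MRPL36 was the only member with more than 1 row of its own, and its rows disagree. The brighter row measured 10.82, 10.67 and 10.55 in BIX01294 and 10.41, 10.46 and 10.46 in DMSO, a difference of 0.23 ± 0.074 (SE; adjusted p 0.0543 in limma). It passed as higher with median centring (adjusted p 0.0342 in limma), without genes below the median level (0.0116), with an intensity trend and robust estimation (0.00412) and without BIX01294 replicate 3 (0.0322), and with the mean of both rows the difference was -0.0031. The dimmer row measured 7.82, 8.79 and 8.47 in BIX01294 and 8.41, 8.55 and 8.83 in DMSO. The groups of the dimmer row overlapped, and its difference was -0.24 ± 0.23 (SE) in the fit over all rows with a symbol.

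Rows shared with another gene cannot be given to a member alone. The row of MRPL51 and SPTLC1 measured 13.03, 12.95 and 12.91 in BIX01294 and 12.84, 12.85 and 12.77 in DMSO, a difference of 0.14 ± 0.057 (SE; adjusted p 0.122 in limma over all rows with a symbol). The row of MRPS28 and TPD52 differed by 0.27 ± 0.12 (SE; adjusted p 0.155) and that of MRPS24 and its readthrough gene by 0.00 ± 0.081 (SE; adjusted p 0.98) in the same fit. None of these 3 rows passed.

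The starts of MRPL46 and MRPS11 lie 320 bases apart on chromosome 15 and run in opposite directions, and both genes rose. MRPS11, named for this pair after its value was seen, measured 12.08, 12.02 and 11.95 in BIX01294 and 11.73, 11.74 and 11.73 in DMSO, a rise of 0.29 ± 0.056 (SE; adjusted p 0.00726 in limma). The sequences of this pair shown above share 81 bases, read from opposite strands. Another 14 members have a measured gene of another kind that starts within 500 bases in the opposite direction. For the 8 of these members that rose, 1 such neighbour rose, 1 fell and 6 did not pass, where 12.9% of all genes rose and 10.7% fell, so the count is close to the share over all genes. SKA3, a kinetochore gene beside MRPL57, rose by 0.49 ± 0.058 (SE; adjusted p 0.000774 in limma), whereas PIERCE1, beside MRPS2, fell, with a change of -0.23 ± 0.056 (SE; adjusted p 0.0206 in limma). The call of PIERCE1 ended when BIX01294 replicate 2 or 3, or DMSO replicate 1 or 2, was left out. The calls of MRPL57 and MRPS2 themselves ended without most single arrays. TCP1, a chaperonin subunit that starts 210 bases from MRPL18, differed by 0.13 ± 0.053 (SE; adjusted p 0.106 in limma). SARS2, the mitochondrial seryl-tRNA synthetase that starts 191 bases from MRPS12, differed by -0.17 ± 0.06 (SE; adjusted p 0.0855 in limma). For the 6 such members that did not rise, 1 neighbour rose and 2 fell. The 23 members that rose lay on 14 chromosomes, with at most 3 on 1 chromosome.

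**Figure D4:**
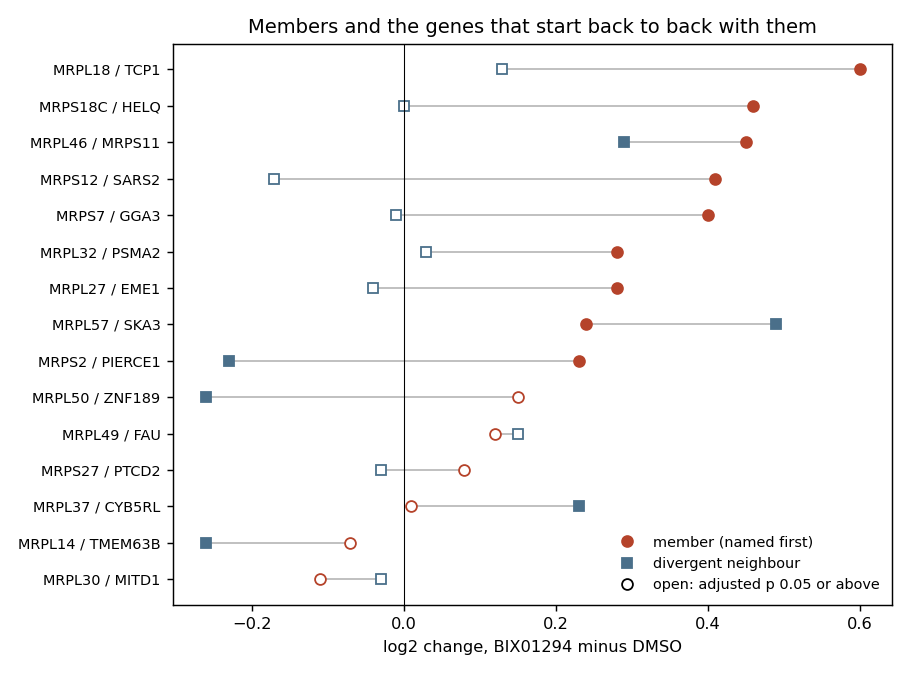
Log2 change, BIX01294 minus DMSO (horizontal axis), of members (circles) and of the measured genes that start within 500 bases in the opposite direction (squares); filled symbols passed an adjusted p of 0.05 in limma. In 2 of the 9 pairs led by a member that rose, MRPL46 with MRPS11 and MRPL57 with SKA3, the neighbour also rose.

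Motif letters were searched on both strands of 300-base windows (250 before to 50 after the start) of 66 members and of 14230 measured genes with a window. The YY1 letters AAGATGGCG were in 12 of 66 members (18.2%), where 2.87% of measured genes held them. The ETS letters CCGGAAGT were in 10 members (15.2%), where 6.39% of measured genes held them. The NRF1 letters GCATGCGC were in 6 members (9.09%), where 4.19% of measured genes held them. The E-box CACGTG, which MYC proteins bind, was in 6 members (9.09%), where 8.88% of measured genes held it. The ATF4 letters TGATGCAA were in none of the 66 windows, where 0.731% of measured genes held them. Among the 21 members that rose and have a window, 2 held the YY1 letters, 3 the ETS letters, 3 the NRF1 letters and 1 the E-box. Among the other 45 members these numbers were 10, 7, 3 and 5. A match describes letters in the window, and the YY1 match of MRPL46 lies outside the bases shown.

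Other genes of mitochondrial translation gave mixed results. Mitoribosomal proteins with other symbols (DAP3, PTCD3, CHCHD1 and GADD45GIP1, 4 of 5 listed) had changes of -0.13 to 0.13, and 0 of them passed limma's adjusted p or an unadjusted p under 0.05. Of 24 assembly factors of the mitochondrial ribosome, 6 rose and 3 fell, with a median of 0.10. Of the 24, 23 lie above the median level, where 22.5% of genes rose and 14.8% fell, so these counts are near the share for genes of that level. MTERF3, a factor of mitochondrial transcription and ribosome assembly, averaged 8.30 ± 0.11 in BIX01294 and 7.83 ± 0.01 in DMSO (SD, n = 3 each; adjusted p 0.00171 in limma). FASTKD2, an RNA-binding protein of large subunit assembly, rose by 0.43 ± 0.063 (SE) and MPV17L2 by 0.38 ± 0.056 (SE). NOA1, a GTPase of small subunit assembly, averaged 9.67 ± 0.02 in BIX01294 and 10.20 ± 0.01 in DMSO (SD, n = 3 each), a change of -0.53 ± 0.05 (SE; adjusted p 0.000308 in limma). The calls of these 4 genes held without any 1 array, whereas the number of falling assembly factors was 5 without DMSO replicate 3 and 1 without any other array.

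Of 14 mitochondrial translation factors measured, 2 rose (14.3%) and 2 fell (14.3%), with a median of 0.08. These shares are close to those of all genes, 12.9% and 10.7%, and not above those of genes above the median level, where 13 of the 14 lie. The elongation factor GFM1 rose by 0.29 ± 0.069 (SE) and the release factor MTRF1L by 0.22 ± 0.068 (SE), while LRPPRC, which stabilises mitochondrial messenger RNA, changed by -0.19 ± 0.05 (SE) and the insertase OXA1L by -0.17 ± 0.052 (SE). Without BIX01294 replicate 1 or DMSO replicate 1 none of these 4 genes passed. Of 13 genes of mitochondrial transcription and RNA processing, 3 rose (23.1%, near the 22.5% of genes above the median level) and 0 fell in limma: PNPT1, a ribonuclease, by 0.40 ± 0.079 (SE), the transcription factor TFB2M by 0.28 ± 0.06 (SE) and ELAC2, which cuts the ends of mitochondrial tRNAs, by 0.27 ± 0.073 (SE). The call of ELAC2 ended when BIX01294 replicate 1 or 3 was left out, and when DMSO replicate 1 or 3 was. At an unadjusted p under 0.05 SUPV3L1 was lower and TFAM was higher.

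Of 10 general mitochondrial genes, TOMM40, the channel of protein import, rose by 0.26 ± 0.056 (SE) and VDAC3 by 0.23 ± 0.051 (SE), which is 20.0% of the list, near the 22.5% of genes above the median level. The other 8 did not pass, and the median change of the list was 0.03. Among these 8, citrate synthase (CS) averaged 12.47 ± 0.01 in BIX01294 and 12.48 in DMSO (SD, n = 3). At an unadjusted p under 0.05 in limma, TOMM22 was higher and TIMM44 and TOMM20 were lower. In bulk RNA, a change in the amount of RNA per cell and a change in the share of cells of a kind cannot be told apart.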

How the data were processed

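Per the labels, the table the authors deposited holds 1 expression value per row and array. The log2 scale of the deposited values was read from their range, and how the authors corrected background, scaled and summarized them is not stated in the labels. Partek is named in the submitters' processing notes. Any scaling between arrays would hide a change common to most genes. No detection calls were used.

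Of 32321 rows, 19158 had 1 gene symbol, 1388 several and 11775 none. The row with the highest mean was kept for each of 18404 genes. The fit used limma 3.58.1 (R 4.3.3) with treatment as the only term, two-sided, with Benjamini-Hochberg adjustment, and was tested on simulated data. With 200 changed genes per simulated set, 24.8% of changes of 0.3, 62.1% of 0.5 and 95.2% of 1 were recovered. Of the calls, 5.62% were false. In the real data 2379 genes rose and 1970 fell, so these shares need not hold there. A member that did not pass may still have changed. All 73 members matched RefSeq (GRCh38.p14) by Entrez identifier. Replicates of a group differed by a median of 0.083 to 0.116.

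The members and lists were chosen with earlier results of these data known. Genes given array by array were the 8 largest rises and up to 8 falls without overlap, MRPS18A, MRPS18B, MRPS18C, MRPS30, MRPS36 (not analysed here), MRPL12, MRPL45 and members whose rows disagree. In other lists up to 4 called genes were named. TH, FN1, CS, SUPV3L1, TFAM, TOMM20, TOMM22 and TIMM44 were named after their values were seen. Subunit place and ancestry come from general knowledge of ribosome structures. Alternatives were quantile normalization, median centring, leaving out dim genes, the mean of rows, all rows with a symbol, an intensity trend with robust estimation, the replicate number as a block, limma's treat, and leaving out each array. Both groups carry numbers 1 to 3, which the labels tie to no shared culture or day.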

Additional observations from a re-analysis of the deposited data

Results flagged for a closer look

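The row shared by MRPS6, a small subunit protein, and SLC5A3, a sodium and inositol transporter, was outside the comparison because it names 2 genes, and it held a difference from the control arrays. It measured 9.49, 9.53 and 9.56 in BIX01294 and 9.25, 9.31 and 9.32 in DMSO. The groups did not overlap, and the difference was 0.23 ± 0.052 (SE), with an adjusted p of 0.0167 in limma over all rows with a symbol. Which of the 2 transcripts it reflects was not tested.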

How the results depend on the processing

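The number of members that rose was 19 to 31 in the alternatives other than treat and leaving out arrays, beside 23 as reported. The 19 were 26.0% of members, where 10.8% of all genes rose, and the 31 were 42.5%, where 16.3% rose. Without genes below the median level 43.5% of members and 31.0% of genes rose. With a minimum change of 0.2 (treat), 3 rose (4.11%), where 2.95% of all genes rose, and 0 fell, where 2.75% of all genes fell. The number that fell, 1 as reported, was 5 with quantile normalization, 4 without genes below the median level and 4 with an intensity trend and robust estimation. Leaving out 1 array gave 14 to 18 rising and 0 to 2 falling members, median changes of 0.09 to 0.14 and large minus small differences of -0.01 to 0.07. In these fits 19.2% to 24.7% of members and 9.23% to 10.4% of all genes rose, against 31.5% and 12.9% with all arrays. The median of all members was 0.08 with quantile normalization, where 49.7% of all calls were rises, against 54.7% as deposited and 64.3% with median centring. The large minus small difference, 0.03 as reported, was 0.05 with quantile normalization, 0.07 without genes below the median level, 0.02 with the mean of rows and 0.02 with subunits by structure. With the replicate number as a block 19 members rose and 1 fell, all 19 shared with the 23, and MRPS12 was the named member that lost its call (adjusted p 0.0601 in limma). With the mean of both rows MRPL36 turned to -0.0031. The causes were not tested. Same-numbered arrays deviated from their group means with correlations of 0.193, -0.176 and 0.054, so the numbers were not taken as pairs. The number of arrays limits what small changes can pass.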
